A study of Mus musculus with 5 samples.

Results

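The genes described here are 10 mouse alcohol and aldehyde dehydrogenases, the alcohol dehydrogenases Adh1, Adh5 and Adh7 and the aldehyde dehydrogenases Aldh1a1, Aldh1a3, Aldh1a7, Aldh2, Aldh3a1, Aldh3a2 and Aldh3b1. All probe sets whose only annotated gene symbol is one of these names were taken, which gave 18 of the 45101 probe sets on the array, 5 for the alcohol and 13 for the aldehyde dehydrogenases. Esophageal RNA of CC10-IL-13 transgenic mice (FVB/N background, aged 3 to 4 months) was measured on Affymetrix Mouse Genome 430 2.0 arrays. The Dox group, with n = 3 arrays, was fed doxycycline, and the NoDox group of the same line, with n = 2 arrays, ate regular diet. The transactivator in this line is under the CC10 promoter, a promoter of club cells in the airway rather than of the esophagus, and with doxycycline it turns on the IL-13 transgene. Both groups carry the transgenes, and doxycycline-fed mice without them were not analysed here, so diet and induced IL-13 cannot be told apart. Whether the arrays came from separate animals is not given in the labels, and p-values measure only the spread between these arrays, which may be technical.

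Alcohol dehydrogenases are zinc enzymes of the cytosol that oxidise alcohols to aldehydes with NAD, and aldehyde dehydrogenases oxidise the aldehydes onward to acids. The same pair of steps turns dietary ethanol into acetate and vitamin A alcohol (retinol) into retinoic acid, the ligand of nuclear receptors that restrain keratinisation of squamous epithelia. The upper digestive tract is known for the class IV enzyme Adh7, which oxidises both ethanol and retinol, and for aldehyde dehydrogenases that clear reactive aldehydes from food and from lipid peroxidation.

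In Dox, 2 of the 10 genes fell, both alcohol dehydrogenases, and 0 rose. Adh7 was 2.97-fold lower (log2 fold change -1.57 ± 0.21, SE) and Adh1 1.88-fold lower (-0.91 ± 0.15). Both calls were lost when either NoDox array was left out, with the log2 fold changes at -1.57 and -1.58 for Adh7 and at -1.06 and -0.76 for Adh1. They were also lost with no intensity trend in limma's variance model (adjusted p = 0.194 for Adh7 and 0.223 for Adh1). Aldh3a1 and Aldh1a7 had all Dox arrays below both NoDox arrays, and Aldh1a3 had all of them above, but none of these 3 passed the test. The remaining 5 genes, Adh5, Aldh1a1, Aldh2, Aldh3a2 and Aldh3b1, had overlapping arrays. With limma at a Benjamini-Hochberg adjusted p under 0.05, 1.84% of all 18193 genes were called, and 1.09% were lower and 0.748% higher in Dox, 198 and 136 genes. With each array centred on its median the same counts were 124 lower and 157 higher, and with quantile normalization 106 and 164. That normalization used recovered signal levels, or a lower bound where none was recovered (described under processing). Arrays of the groups did not overlap for 5 of the 10 genes, 4 lower and 1 higher, against 36.5% of all genes (23.9% lower and 12.6% higher). At unadjusted p under 0.05 stood 5 of the 10 genes, against 17.6% of all. The median log2 fold change of the 10 genes was -0.15, against -0.11 for all genes.

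The stretches of genome in front of the Adh genes are shown first, because Adh7 and Adh1 fell while Adh5 did not pass. These are RefSeq sequences of GRCm38.p6 from 250 bases before to 50 after the annotated gene start, printed 5′ to 3′ on the strand of the gene. Capitals mark matches on either strand to GCGTG, the core bound by the aryl hydrocarbon receptor (read as CACGC on the opposite strand), and to the TATA box letters TATAAA (read as TTTATA).
Adh7, chr3:138217523-138217822, plus strand: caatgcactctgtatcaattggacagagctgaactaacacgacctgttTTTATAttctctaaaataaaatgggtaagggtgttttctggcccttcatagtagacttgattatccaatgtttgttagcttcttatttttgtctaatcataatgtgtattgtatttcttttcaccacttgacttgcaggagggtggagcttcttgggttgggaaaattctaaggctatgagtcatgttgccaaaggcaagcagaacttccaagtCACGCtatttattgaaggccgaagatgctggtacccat
Adh1, chr3:138277335-138277634, plus strand: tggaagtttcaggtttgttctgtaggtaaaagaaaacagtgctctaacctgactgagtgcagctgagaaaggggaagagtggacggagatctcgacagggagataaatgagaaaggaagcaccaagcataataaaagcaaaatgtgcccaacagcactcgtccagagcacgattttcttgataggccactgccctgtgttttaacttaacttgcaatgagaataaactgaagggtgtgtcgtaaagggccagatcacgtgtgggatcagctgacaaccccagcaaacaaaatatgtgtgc
Adh5, chr3:138442843-138443142, plus strand: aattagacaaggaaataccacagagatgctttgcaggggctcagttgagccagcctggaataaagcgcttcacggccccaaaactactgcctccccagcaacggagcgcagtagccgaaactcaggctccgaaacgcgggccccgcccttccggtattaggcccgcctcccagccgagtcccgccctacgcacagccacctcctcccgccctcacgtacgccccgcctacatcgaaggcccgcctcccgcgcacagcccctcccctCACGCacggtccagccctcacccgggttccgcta
The Adh7 window is rich in A and T, with 39.3% G or C, and the Adh1 window has 45.3%. The Adh5 window shown, the second of 2 annotated starts, has 65.0%, and the window of the first start, not shown, has 47.0%. The median over all 32851 such windows was 52.7%. Windows were found for 7 of the 10 genes (9 windows), and none for Aldh1a3, Aldh2 and Aldh3a1, so the matches say nothing of these. GCGTG stood in windows of Adh7, Adh5 and Aldh3a2, against 32.4% of all windows. TATAAA stood in windows of Adh7, Adh5 and Aldh1a7, against 13.6% of all windows, each more than 200 bases before the start. The antioxidant response core TGACNNNGC and the STAT6 letters TTCNNNNGAA matched 0 of the 9 windows, against 12.4% and 6.95% of all. No match overlapped another. A match describes letters only.

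Each deposited value is a ratio, the signal of an array divided by the mean NoDox signal of that probe set, so the NoDox values of a gene average 1 by construction. Adh7, the class IV enzyme of stomach and esophagus, had ratios of 0.373, 0.414 and 0.247 in Dox arrays 1, 2 and 3, against 1.004 and 0.996 in the NoDox arrays. All 3 Dox arrays lay far below both NoDox arrays, with array 3 lowest (adjusted p = 0.0173, limma with Benjamini-Hochberg adjustment over all genes). Its second probe set had 0.438, 0.472 and 0.309 in Dox, against 1.01 and 0.993 in NoDox, in the same order of arrays. Fitted over all 45037 probe sets that are not controls, both Adh7 probe sets and none of the other 16 passed, at -1.57 ± 0.22 and -1.32 ± 0.19 (limma adjusted p = 0.0314 and 0.0348), where 0.682% of all probe sets were called and 0.389% were called lower. The fall of Adh7 held without each single Dox array (log2 fold change -1.72 to -1.35) and lost its call without either NoDox array (limma adjusted p = 0.251 without replicate 1 and 0.221 without replicate 2).

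Adh1, the class I enzyme that oxidises ethanol and retinol in liver and many epithelia, had ratios of 0.475, 0.567 and 0.553 in Dox, against 0.896 and 1.10 in NoDox. The Dox arrays lay close together and below both NoDox arrays (limma adjusted p = 0.0291 over genes). In limma's fit over probe sets the 1 probe set of Adh1 had an adjusted p of 0.0515 and did not pass, and over genes with quantile normalization it had 0.0567. It kept its call without Dox replicate 2 (0.0184) and lost it without any other single array (0.0532 to 0.309), the log2 fold change staying between -1.06 and -0.76. In bulk tissue fewer cells that express a gene and less RNA in each of them cannot be told apart, here and below.

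Adh5, the class III enzyme, acts on the formaldehyde and nitric oxide adducts of glutathione and is found in nearly all tissues. Its ratios were 0.928, 0.847 and 1.02 in Dox, against 1.04 and 0.958 in NoDox, and the groups overlapped (-0.10 ± 0.14, limma adjusted p = 0.744). The 95% interval of this difference, not adjusted for the number of genes, runs from 0.749 to 1.16 times the NoDox level. Adh5 was -0.10 in the fit as reported and 0.04 with quantile normalization. Its other probe set was dim and uneven, with 1.48, 1.003 and 0.251 in Dox, against 0.648 and 1.35 in NoDox.

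**Figure D1:**
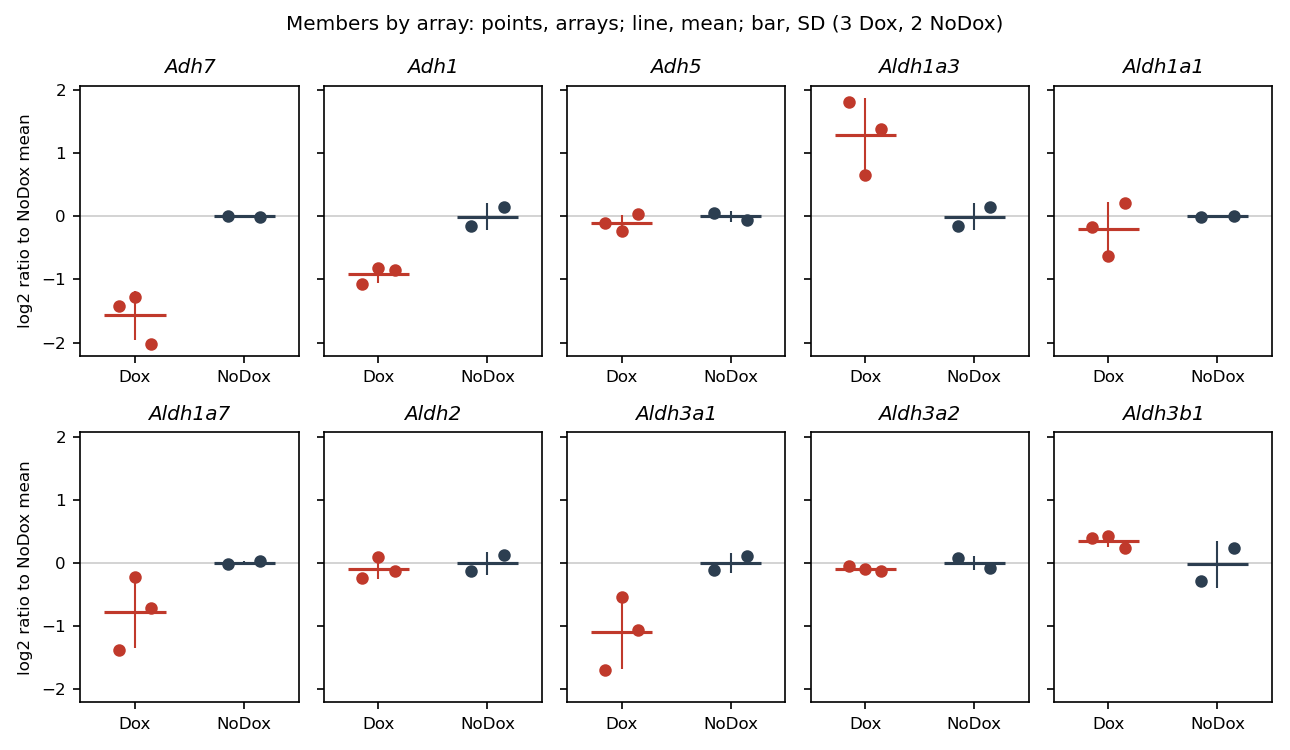
Log2 ratio to the NoDox mean for each of the 10 genes (y axis) in the 3 Dox arrays (red, left) and the 2 NoDox arrays (dark, right), with points for arrays, lines for means and bars for SD. The Dox points of Adh7, Adh1, Aldh1a7 and Aldh3a1 lie below both NoDox points and those of Aldh1a3 above them, and the other 5 genes overlap.

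The Adh genes of the mouse lie side by side on chromosome 3, in the RefSeq order Adh7, Adh1, Adh6a, Adh6b, Adh6-ps1, Adh4 and Adh5. Adh6a, which is not one of the 10 genes, had ratios of 0.201, 0.275 and 0.229 in Dox, against 0.937 and 1.06 in NoDox. Its fall was larger in size than that of Adh7, a difference that was not tested (-2.10 ± 0.16, limma adjusted p = 0.00324), and this call too was lost without either NoDox array. Adh6b (-0.03 ± 0.94), the pseudogene Adh6-ps1 (0.36 ± 0.92) and Adh4 (-1.67 ± 0.97), an enzyme of liver and stomach, had standard errors near 1 and did not pass. The genes that fell are the first 3 in that order, and Adh5 stands last. Of the 4 other alcohol dehydrogenases measured (Adh4, Adh6a, Adh6b and Adhfe1) 1 fell and 0 rose, with a median of -0.85. Within each array Adh7 minus Adh5 differed between the groups by -1.47 on the log2 scale, with Dox arrays at -1.31, -1.04 and -2.05 and NoDox arrays at -0.05 and 0.06. Adh1 minus Adh5 differed by -0.80 and Adh7 minus Adh1 by -0.66. Each of these had an exact permutation p of 0.2 (two-sided), the smallest that 3 against 2 arrays allow, for 5 gene pairs compared in all, so this test cannot reach 0.05 here.

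**Figure D2:**
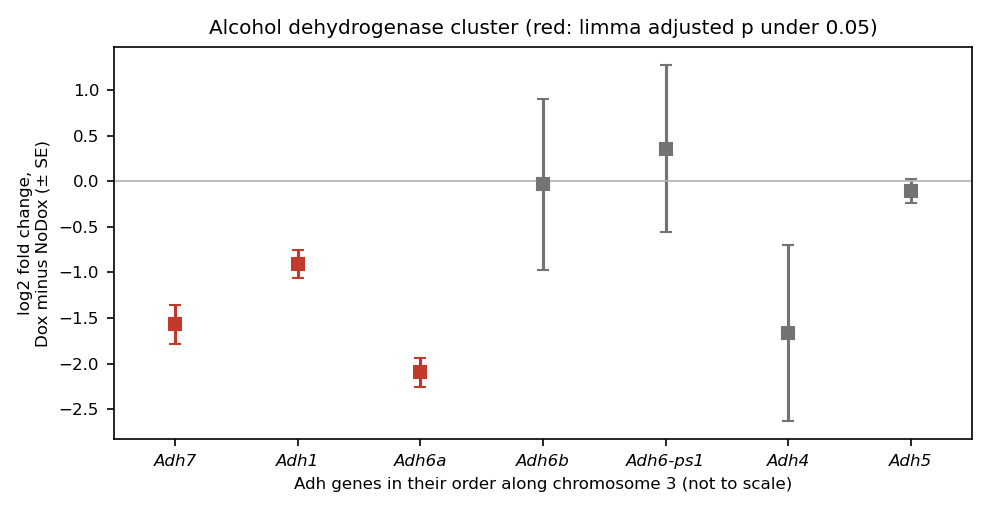
Log2 fold change, Dox minus NoDox, with SE (y axis) of the Adh genes in their order along chromosome 3 (x axis, not to scale), from 3 Dox and 2 NoDox arrays. The first 3 genes lie at -1.57, -0.91 and -2.10 and pass limma's test (red), Adh5 at the far end lies at -0.10, and the 3 genes with wide bars have standard errors from 0.92 to 0.97.

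Among the enzymes that make retinoic acid, Aldh1a3 and Aldh1a1 oxidise retinal, and Aldh1a7 is a rodent paralog of Aldh1a1. Aldh1a3, an enzyme of epithelia, had ratios of 3.52, 1.57 and 2.60 in Dox, against 0.897 and 1.10 in NoDox. All Dox arrays were above both NoDox arrays, array 2 least so, and the gene did not pass (1.29 ± 0.40, limma adjusted p = 0.152). Its other probe sets pointed the same way, at 1.49 ± 0.64 and 2.93 ± 0.88, and 3 of 3 had all Dox arrays above both NoDox arrays, a separation upward that 12.4% of all probe sets show. The probe set with the greatest difference had 8.28, 4.95 and 4.83 in Dox, against 0.358 and 1.64 in NoDox, and its NoDox arrays were themselves far apart. Without Dox replicate 2 the adjusted p of Aldh1a3 was 0.0522, and over all alternatives it ran up to 0.535.

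Aldh1a1, the abundant cytosolic retinal dehydrogenase, had ratios of 0.889, 0.650 and 1.16 in Dox, against 0.991 and 1.01 in NoDox. The groups overlapped (-0.19 ± 0.22, limma adjusted p = 0.705), with a 95% interval from 0.612 to 1.25 times the NoDox level. Aldh1a7 had ratios of 0.386, 0.857 and 0.606 in Dox, against 0.984 and 1.02 in NoDox. Its Dox arrays were all below both NoDox arrays, yet array 2 came close to them, and the gene did not pass (-0.77 ± 0.29, limma adjusted p = 0.218). Its size rested on which Dox arrays were used: it passed without replicate 2 (-1.05, limma adjusted p = 0.0383) and was -0.47 without replicate 1 (0.243). Dox array 2 was the lowest for Aldh1a1 and the highest for Aldh1a7, while array 1 lay below array 3 for both. Aldh1a7 minus Aldh1a1 differed between the groups by -0.58 on the log2 scale (exact permutation p = 0.6, two-sided).

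Both genes lie next to each other on chromosome 19, and the ends of their promoter windows are shown because they are near copies. Of the last 150 bases, compared without gaps, 142 are identical (94.7%), and capitals mark the 8 that differ.
Aldh1a1, chr19:20601868-20602017, plus strand: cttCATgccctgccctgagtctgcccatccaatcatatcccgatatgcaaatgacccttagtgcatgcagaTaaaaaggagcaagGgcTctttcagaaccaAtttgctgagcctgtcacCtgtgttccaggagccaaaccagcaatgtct
Aldh1a7, chr19:20727507-20727656, minus strand: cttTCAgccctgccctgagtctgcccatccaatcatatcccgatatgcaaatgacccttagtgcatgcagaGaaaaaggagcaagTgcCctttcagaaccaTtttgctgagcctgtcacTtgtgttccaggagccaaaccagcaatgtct
Aldh1a1 and Aldh1a7 are close paralogs, and the sharing of RNA between their probe sets was not tested, so the values of each are uncertain to that extent.

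The remaining 4 genes clear reactive aldehydes, and none of them passed. Aldh3a1, known for its abundance in cornea and stomach, where it oxidises aldehydes of lipid peroxidation, had ratios of 0.309, 0.686 and 0.478 in Dox, against 0.923 and 1.08 in NoDox. All Dox arrays were below both NoDox arrays, array 1 lowest and array 2 highest, and the gene did not pass (-1.10 ± 0.29, limma adjusted p = 0.112). It passed without Dox replicate 2 (-1.38, limma adjusted p = 0.0171) and was -0.80 without replicate 1 (0.0970). Aldh3a1 shared its order of Dox arrays with Aldh1a7, array 1 lowest, then 3, then 2, an order that genes of other lists below also had. Its neighbour on chromosome 11, Aldh3a2, the microsomal enzyme of fatty aldehydes, had 0.961, 0.931 and 0.914 in Dox, against 1.05 and 0.947 in NoDox. That was the tightest gene of the 10 in Dox (-0.09 ± 0.13, limma adjusted p = 0.768, 95% interval 0.755 to 1.16 times the NoDox level). Aldh3a1 minus Aldh3a2 differed between the groups by -1.003 on the log2 scale (exact permutation p = 0.2, two-sided). Aldh3b1, an enzyme of lipid-derived aldehydes, had 1.32, 1.34 and 1.17 in Dox, against 0.818 and 1.18 in NoDox, an overlap set by Dox array 3 and NoDox array 2 (0.37 ± 0.33, limma adjusted p = 0.619).

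Aldh2, the mitochondrial enzyme that clears acetaldehyde made from ethanol, had ratios of 0.847, 1.07 and 0.916 in Dox, against 0.912 and 1.09 in NoDox. The groups overlapped (-0.09 ± 0.15, limma adjusted p = 0.819), with a 95% interval from 0.739 to 1.20 times the NoDox level. It has 5 probe sets, whose log2 fold changes ran from -0.09 to 0.34, none past the threshold. One of them had 0.985, 1.44 and 1.42 in Dox, against 0.917 and 1.08 in NoDox, and gave the value of 0.34 ± 0.30. The sign of Aldh2 thus depended on the probe set, and it also turned to 0.06 with quantile normalization. Over the 18 probe sets, 8 had groups that did not overlap, 5 lower and 3 higher, where 32.1% of all probe sets did, 19.7% lower and 12.4% higher. At unadjusted p under 0.05 stood 8 of the 18, against 13.7% of all probe sets.

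**Figure D3:**
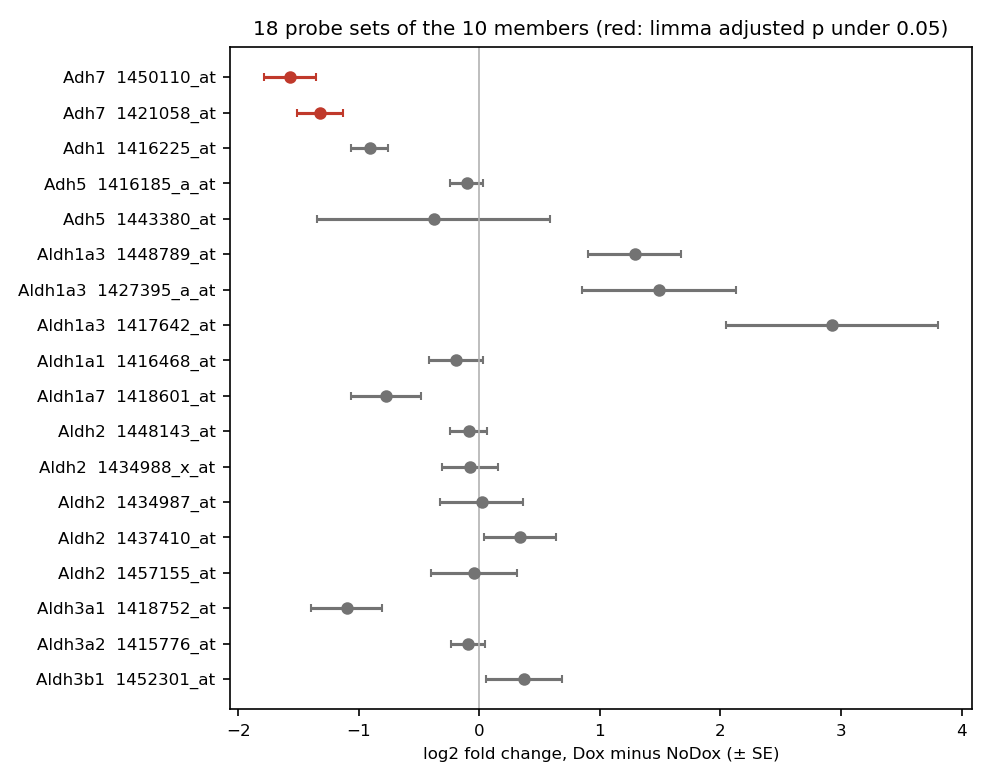
Log2 fold change, Dox minus NoDox, with SE (x axis) for the 18 probe sets of the 10 genes (rows), fitted with limma over 45037 probe sets. Both Adh7 probe sets pass (red, -1.57 and -1.32), the 3 of Aldh1a3 lie between 1.29 and 2.93 with wide bars, and the 5 of Aldh2 lie around 0.

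**Figure D4:**
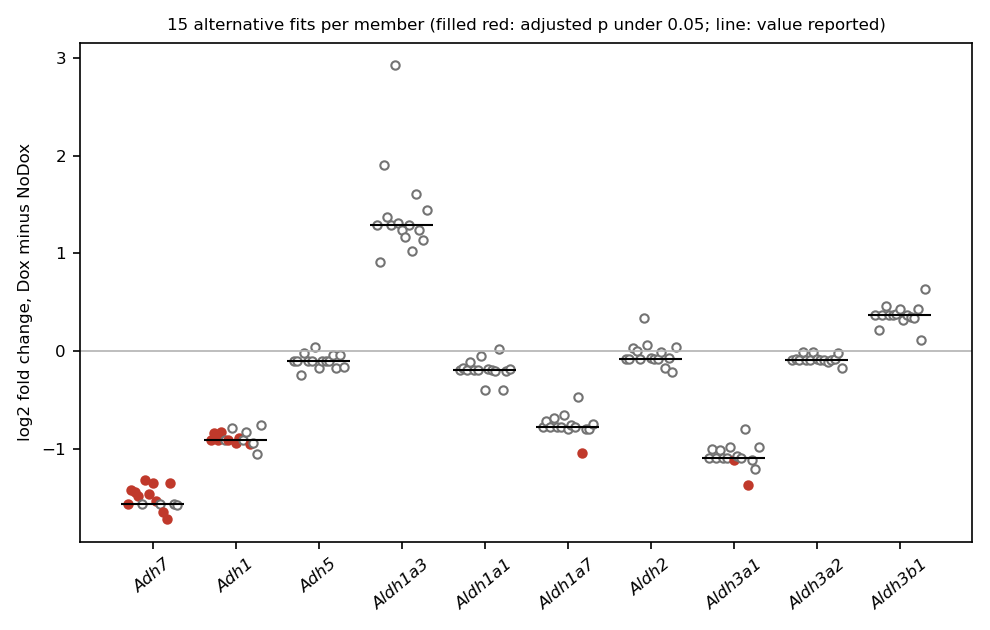
Log2 fold change, Dox minus NoDox (y axis), of each gene (x axis) in the reported fit (line) and in 15 alternative fits (points, filled red where limma's adjusted p was under 0.05). Adh7 keeps its call in 11 and Adh1 in 8 of these fits, Aldh3a1 gains one in 2 and Aldh1a7 in 1, and Aldh1a3 stays above 0 in all 15 without a call.

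Other genes of the same chemistry were grouped by role. Of 13 other aldehyde dehydrogenases 0 passed in either direction with limma (6 at unadjusted p under 0.05), and their median log2 fold change was 0.06. The smallest p-values in that group were those of the proline-synthesis enzyme Aldh18a1 (0.54 ± 0.14, limma adjusted p = 0.0977) and of Aldh3b2, a lipid aldehyde enzyme (-0.59 ± 0.19, limma adjusted p = 0.171). In a group of 18 enzymes of ethanol, formaldehyde and other aldehydes, 1 fell and 1 rose. Catalase (Cat), which breaks down hydrogen peroxide and can oxidise ethanol with it, had 0.582, 0.503 and 0.636 in Dox, against 0.995 and 1.01 in NoDox (-0.81 ± 0.14, limma adjusted p = 0.0357). The call of Cat depended on its probe set, with -0.39 (0.256) for the one of highest mean log2 ratio and -0.60 (0.101) for the mean of all, and it was lost with median centring (0.0623) and quantile normalization (0.0528). Xanthine dehydrogenase (Xdh) had 1.84, 1.48 and 1.68 in Dox, against 1.05 and 0.955 in NoDox (0.73 ± 0.14, limma adjusted p = 0.0488, and 0.0601 with the mean over probe sets). Cyp2e1, the ethanol-oxidising cytochrome, had 0.726, 1.11 and 1.09 in Dox, against 0.732 and 1.27 in NoDox, overlapping throughout.

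On the retinoid side, 1 of 22 enzymes and carriers of retinol and retinal fell and 0 rose, with a median of -0.17 against -0.11 for all genes. The gene that fell was Crabp2, which carries retinoic acid to its nuclear receptor, with 0.312, 0.559 and 0.352 in Dox, against 0.944 and 1.06 in NoDox (-1.34 ± 0.24, limma adjusted p = 0.0361, and 0.0689 with quantile normalization). Like Aldh3a1 and Aldh1a7 it had its lowest Dox value in array 1 and its highest in array 2. Genes of other lists had this order too, among them Gstm1, the squamous marker Evpl and the smooth muscle marker Tagln. Its share over all genes was not counted. Of 13 retinoic acid receptors and target genes 0 passed with limma (2 at unadjusted p under 0.05). The smallest p-values were those of Rarres1, a retinoid-responsive gene (-0.73 ± 0.15, limma adjusted p = 0.0521), and of the germ cell gene Stra8 (-1.74 ± 0.57, limma adjusted p = 0.175). Of 16 target genes of the aryl hydrocarbon receptor, a known inducer of Aldh3a1, and of NRF2, 1 fell and 0 rose. It was thioredoxin reductase 1 (Txnrd1), with 0.612, 0.599 and 0.500 in Dox, against 1.03 and 0.969 in NoDox (-0.81 ± 0.14, limma adjusted p = 0.0338, but 0.0775 with quantile normalization and 0.272 with the mean over probe sets). The median of this group was -0.40, and 9 of its 16 genes had all Dox arrays below both NoDox arrays, where 23.9% of all genes did. Other lists had similar or larger shares. These included 9 of the 18 enzymes of ethanol, formaldehyde and other aldehydes, 8 of 15 squamous markers and 6 of 6 smooth muscle markers. The cytochrome targets of the aryl hydrocarbon receptor did not run one way. Cyp1a1 had 0.406, 0.276 and 0.183 in Dox, against 0.838 and 1.16 in NoDox (-1.85, limma adjusted p = 0.0706). Cyp1a2 had 8.62, 3.92 and 5.17 in Dox, against 1.57 and 0.431 in NoDox (2.77, limma adjusted p = 0.183). Its probe set was dim and its NoDox arrays lay far apart. Its recovered signal level was 237 steps (described under processing), below the 20th percentile of recovered levels, 686 steps. Ahrr, Cyp1b1 and Tiparp had overlapping groups. Besides Cyp1a1, the genes with all Dox arrays lower were Txnrd1, Gsta4, Hmox1, Nqo1, Gstm1, Srxn1, Me1 and Slc7a11. Gclc (0.18), Gclm (-0.08) and Osgin1 (-0.12) of the same list had overlapping groups. The list holds targets of both regulators, and these genes were not assigned to either of them. Any part of either regulator was not tested. The calls of Cat, Xdh and Crabp2 held without Dox replicate 2 and were lost without any other single array (adjusted p 0.0563 to 0.389). That of Txnrd1 was lost without Dox replicate 3 and without either NoDox replicate (0.127 to 0.319).

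The genes whose ratios over the 5 arrays were nearest to those of Adh7 were Slc22a4, a transporter of organic cations and ergothioneine, the kinesin gene Kif9, and Erich6. The root mean square difference of their log2 ratios from those of Adh7 was 0.12, 0.18 and 0.19. Slc22a4 had 0.334, 0.357 and 0.245 in Dox, against 0.977 and 1.02 in NoDox (limma adjusted p = 0.0434), a call that held only without Dox replicate 2 among the fits with an array omitted and was lost with median centring (0.0531). Its log2 fold change of -1.70 ± 0.32 was -0.76 with the larger offset added to the signals. Kif9 (-1.48 ± 0.31, limma adjusted p = 0.0576) and Erich6 (-1.36 ± 0.63, limma adjusted p = 0.310) did not pass. The likeness over 5 arrays is a description.

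Markers of the cells in this tissue were set beside these values. The esophageal keratins Krt4 and Krt13 stood at -0.04 ± 0.14 and -0.20 ± 0.13, and neither passed. Ppl, Scel and Dsg1a, of the cornified envelope and desmosomes, fell (-0.88, -0.70 and -0.74, limma adjusted p = 0.0278, 0.0361 and 0.0379), 3 of 15 squamous markers. These calls were lost with quantile normalization (0.0646, 0.0809 and 0.0888), those of Scel and Dsg1a also with median centring (0.0560 each), and Scel was -0.40 (0.862) with its probe set of highest mean log2 ratio. Of the 15 squamous markers 8 had all Dox arrays below both NoDox arrays and 2 had them above. Those 2 were Krt14 (0.48 ± 0.17, limma adjusted p = 0.204) and Sox2 (0.26 ± 0.13, limma adjusted p = 0.362). The cornified envelope genes Lor (-0.07) and Ivl (-0.12) had overlapping groups. The median ratio of the squamous list ran from 0.781 to 0.891 in Dox, against 0.952 to 1.05 in NoDox. Of 9 adipocyte markers 1 fell, Lep (-3.91 ± 0.66), and 9 lay below 0, with median ratios of 0.767 to 0.843 in Dox, against 0.912 to 1.09 in NoDox. The size of the fall of Lep depended on the offset, and it was -1.83 with the small and -0.80 with the larger offset added to the signals. The 3 skeletal muscle genes Myh7, Myh4 and Pvalb fell among 12, and of 10 fibroblast and 6 smooth muscle markers 0 passed with limma (3 and 4 at unadjusted p under 0.05), with list medians of -0.20 and -0.50. Their part in the values of Adh7 and Adh1 was not tested.

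Markers of airway and stomach were included because those tissues are also known to express Aldh1a1, Aldh3a1 and Adh7. Of 11 airway and lung markers 5 rose, all of alveoli (Sftpc, Sftpa1, Sftpd, Napsa and Ager), and 0 fell. With the mean over probe sets Sftpc, Napsa and Ager lost their calls (limma adjusted p = 0.138, 0.397 and 0.0905). The list's median ratio was 1.80 to 2.92 in Dox, against 0.962 to 1.04 in NoDox. The club cell gene Cyp2f2 had 0.406, 0.839 and 0.527 in Dox, against 0.952 and 1.05 in NoDox, the array order of Aldh1a7, Aldh3a1 and genes of other lists, while Scgb1a1, the gene for CC10, had 1.37, 1.46 and 2.56 in Dox, against 1.05 and 0.949 in NoDox. Neither passed (limma adjusted p = 0.174 and 0.176). Of 10 markers of glandular stomach 0 passed with limma (1 at unadjusted p under 0.05), with median ratios of 0.515 to 1.07 in Dox, against 0.937 to 1.06 in NoDox. Of 4 liver markers 0 passed with limma (2 at unadjusted p under 0.05), and albumin (Alb) had 0.261, 0.170 and 0.237 in Dox, against 0.409 and 1.59 in NoDox, an uneven pair of NoDox arrays. Macrophage markers rose, 4 of 10 (Cd68, Tyrobp, Csf1r and Adgre1, the last with a limma adjusted p of 0.0505 with the mean over probe sets), while 0 of 7 endothelial and 0 of 7 lymphocyte markers passed with limma (3 and 2 at unadjusted p under 0.05). The median ratio of the lymphocyte list was 1.19, 1.69 and 10.7 in Dox, against 1.003 and 0.997 in NoDox, so Dox array 3, the lowest array for Adh7, stood apart. Il13 itself had 0.305, 0.877 and 0.678 in Dox, against 1.15 and 0.853 in NoDox, and did not pass (-0.81 ± 0.83, limma adjusted p = 0.668). Its probe set was dim, with a recovered level of 403 steps, below the 20th percentile of recovered levels, 686 steps. With the larger offset added to the signals its log2 fold change was -0.07, so these ratios do not show whether the transgene was induced. The part of these cells in the dehydrogenase values was not tested.

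**Figure D5:**
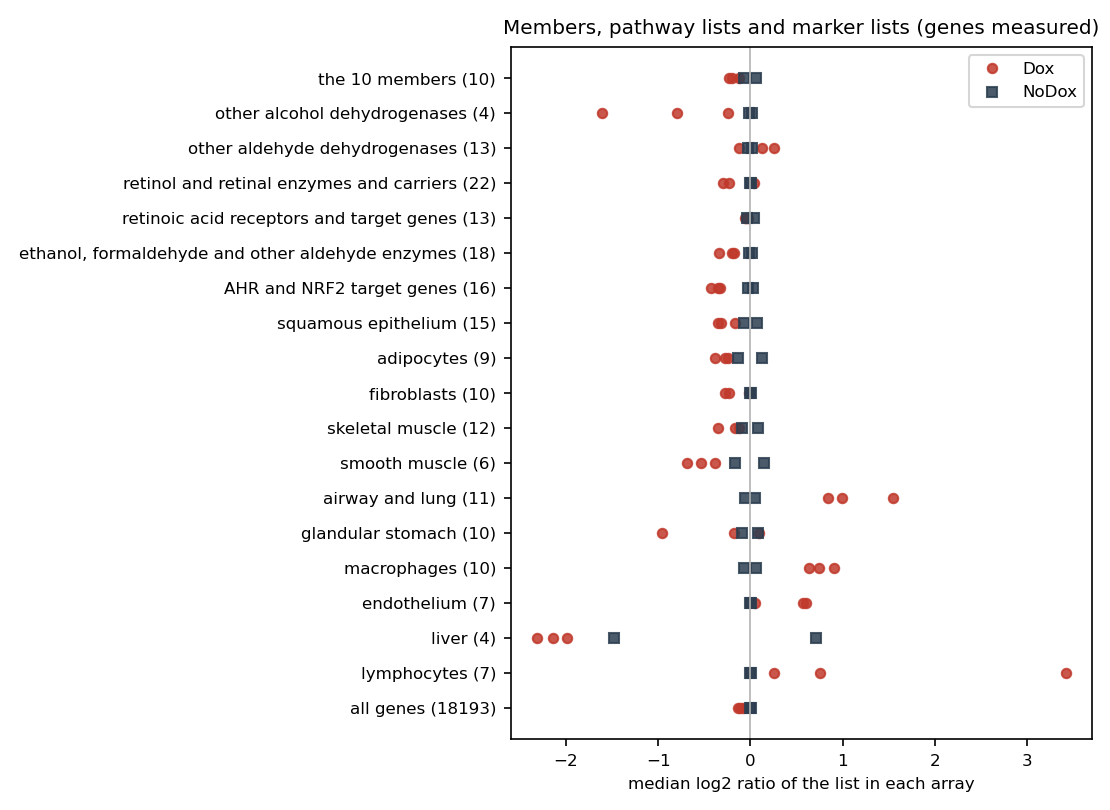
Median log2 ratio (x axis) in each Dox array (red circles) and NoDox array (dark squares) for the 10 genes, 6 pathway lists, 11 marker lists and all genes (rows, with the number of genes measured). The 10 genes as a group lie near all genes. The medians of the aryl hydrocarbon receptor and NRF2 targets lie lower in every Dox array, as do those of other lists, smooth muscle and liver among them. Those of the airway, macrophage, endothelial and lymphocyte markers lie higher.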

How the data were processed

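RNA was isolated with Trizol and biotin-labelled from random primers, per the labels' protocols. Per the labels, signals came from Microarray Suite 5.0 at default settings and were normalized in GeneSpring 7.3.1, pair-wise to unstimulated controls. The deposited values are ratios. In 45099 of 45101 probe sets both NoDox values add up to 2 (tolerance 0.0001), so the divisor is the NoDox mean. No detection calls were used, and the number of arrays limits the precision.

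Signal levels were recovered from the ratios. Signals stored as whole steps, with 1 scale per array (1.12-fold between the extremes), gave a solution up to 50000 steps (relative tolerance 3e-07) for 40015 probe sets (88.7%), and for 3 of 4000 with shuffled ratios. Of simulated levels with a solution 95.9% were right and 99.8% within 3-fold. The simulated levels were drawn from the recovered ones, so this check does not cover probe sets without a solution. Probe sets without a solution, 8 of the 18 here, took a lower bound. Levels set the variance trend and the probe set of each gene (highest level). For Adh7 both levels are bounds, each 50000 steps divided by the highest of its ratios after array scaling. Such a bound comes from the tested ratios and is lower where Dox arrays are high, 26649 steps for Xdh against 51842 for Adh7. The choice between bounds thus favoured the probe set with the lower highest ratio, whatever its true signal.

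Log2 ratios, with no offset or filter, were fitted with limma 3.58.1 in R 4.3.3 (lmFit, eBayes with trend; 3 residual and 5.07 prior degrees of freedom), two-sided, with Benjamini-Hochberg adjustment. On simulated data of 18193 genes it called 0 genes in the run where none was changed. Of 200 genes changed 2-, 4- and 8-fold it called 0, 93 and 129, so it can miss 2-fold changes. In the 4-fold and 8-fold runs it also called 6 unchanged genes each. Of the probe sets 34945 have 1 symbol, 932 several, 9160 none, and 64 are controls. Named genes are the 10 members, the called genes of each of 6 pathway lists (at most 5, or the 2 of smallest p where none was called), the 3 genes most like Adh7, and Il13. Marker genes, Adh6b, Adh6-ps1, Adh4, Cyp2e1, Cyp1a1, Cyp1a2, Ahrr, Cyp1b1, Tiparp, Gsta4, Hmox1, Nqo1, Gstm1, Srxn1, Me1, Slc7a11, Gclc, Gclm and Osgin1 were named after their values were seen. The members and lists were chosen with earlier results of these data known. Of 204 list entries 187 were measured. Tables and plots were made with Python 3.11.15, numpy 2.4.6, pandas 2.3.3, scipy 1.17.1, numba 0.67.0 and matplotlib 3.10.9.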

Additional observations from a re-analysis of the deposited data

How the results depend on the processing

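The direction of the called genes, Adh7 and Adh1, held in all 15 alternative fits, and their calls did not. The 2 members called became 0 at adjusted p under 0.01, 0 with no intensity trend, 0 with the trend on the mean log2 ratio and 1 with quantile normalization, and 0 to 4 with 1 array left out. The 2 member probe sets called became 0 with no trend, with the trend on the mean log2 ratio and with quantile normalization, and 0 to 4 with 1 array left out. Over all genes the 334 calls (136 higher, 198 lower) became 37 (19 and 18) at adjusted p under 0.01 and 773 (272 and 501) under 0.10. They became 4 (4 and 0) with no trend, with 2441 genes at unadjusted p under 0.05, and 0 with the trend on the mean log2 ratio, with 2369. With the larger offset they were 505, with 238 higher, and with the small offset 208 were higher. Genes called lower were 131 with the mean over probe sets, 124 with median centring, 104 with the probe set of highest mean log2 ratio and 106 with quantile normalization. With 1 array left out the total ran from 3 to 753, with 0 to 224 higher and 3 to 529 lower. Without Dox replicate 2 it was 753, without Dox replicate 3 it was 60, and without NoDox replicates 1 and 2 it was 3 and 4. The cause of these shifts was not tested. Of the 24 called genes the text names, members included, 23 lost their call without either NoDox array, 24 with no trend and 24 with the trend on the mean log2 ratio. Signs turned only for members far from the threshold, Adh5 (0.043, quantile normalization), Aldh1a1 (-0.396 to 0.0210 with 1 array left out, above 0 without Dox replicate 2) and Aldh2 (0.340 with the probe set of highest mean log2 ratio, 0.0312 with the mean over probe sets, 0.0580 with quantile normalization, and -0.213 to 0.0410 with 1 array left out, above 0 without NoDox replicate 2). The titles number the arrays alike in both groups, but same-numbered arrays hardly deviated together (r = 0.02 and 0.04 across genes). With the array number as a replicate block 3 members were lower, Aldh3a1 being the third (-1.12, limma adjusted p = 0.0315), and 159 genes were higher and 290 lower. Dox replicate 3 has no NoDox array of its number, so the block fit takes its changes from replicates 1 and 2 alone. Left out without a block, the same array gave Aldh3a1 the same -1.12 with a limma adjusted p of 0.254. The offsets and the quantile normalization used a lower bound where no level was recovered, as for Adh7 and Adh1. The filter on low signals kept such probe sets.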
